A study of Mus musculus with 6 samples.

Results

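A set of 10 genes of the G1 phase of the cell cycle were followed in single-cell RNA-Seq of mouse striatal astroglia. They are the 3 D-type cyclins (Ccnd1, Ccnd2, Ccnd3), their kinases Cdk4 and Cdk6, the kinase inhibitors Cdkn1a (p21), Cdkn1b (p27) and Cdkn2c (p18), and the E-type cyclins Ccne1 and Ccne2. These 10 members were taken by name from the 32285 genes in the count table, and all 10 were found there.

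Striatal cells were enriched for the astrocyte surface antigen ACSA2 from wild-type male C57BL/6 mice at postnatal day 3 (P3, 3 libraries) and at 3 months (3m, 3 libraries). No transgene or treatment was used, each library came from a separate preparation of pooled animals, and the subventricular zone was left out of the dissection. The libraries held 16690 cell barcodes, of which 14373 passed the filter on cells and 9992 were astroglial. The astroglia comprised 2 clusters of cycling glial progenitor cells (GPC_8 and GPC_9), 6 P3 astrocyte clusters, a multiciliated cluster (AST_P3_19) and 2 clusters of 3m astrocytes. Total unique molecular identifiers (UMIs, 1 per captured transcript) ranged from 32193875 to 37795021 in the P3 libraries and from 5471573 to 10522151 in the 3m libraries. Levels are given as UMIs of the gene scaled to 1000000 UMIs of the cells pooled (CPM). The summed level of 5 astrocyte markers lay between 3898 and 4881 CPM in P3 astroglia and between 9669 and 10197 CPM in 3m astroglia, with all 5 detected in each library. GPC cells numbered 280, 424 and 382 in the P3 libraries and 0 in each 3m library. In all, 28 barcodes of the kept cells occurred in more than 1 library.

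In G1, mitogens induce the D-type cyclins, which pair with Cdk4 or Cdk6 and phosphorylate the retinoblastoma protein. This releases E2F factors, which switch on the E-type cyclins, and cyclin E with Cdk2 then starts DNA replication. p18 blocks Cdk4 and Cdk6 directly, whereas p21 and p27 bind cyclin-Cdk complexes, and p21 is a classical target of p53. Astrocytes of the early postnatal brain still divide locally, and most adult astrocytes rest outside the cycle.

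All 10 are protein-coding genes, and their places are given on mm10 from the GENCODE M21 annotation. The D-type cyclins lie apart, Ccnd1 at chr7:144929931-144939925 (- strand), Ccnd2 at chr6:127125162-127152193 (- strand) and Ccnd3 at chr17:47505051-47599691 (+ strand). The kinases are Cdk4 at chr10:127063534-127067920 (+ strand) and Cdk6 at chr5:3341485-3531008 (+ strand). The inhibitors are Cdkn1a at chr17:29090976-29100727 (+ strand), Cdkn1b at chr6:134920401-134925513 (+ strand) and Cdkn2c at chr4:109660876-109667189 (- strand). The E-type cyclins are Ccne1 at chr7:38097984-38107534 (- strand) and Ccne2 at chr4:11191351-11204779 (+ strand).

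Promoter sequences of 7 of the 10 members were found in RefSeq (GRCm38.p6), in 10 windows that end at a transcription start. The 250 bases before the starts of the kinases are shown because both kinases fell together with age, and that of Cdkn1a, a gene with more than 1 window, because this inhibitor did not follow them. Capitals mark CACGTG, the E-box that Myc and related factors can bind, in the kinases, and the p53 half-site in Cdkn1a.
Cdk4, chr10:127063285-127063534, + strand: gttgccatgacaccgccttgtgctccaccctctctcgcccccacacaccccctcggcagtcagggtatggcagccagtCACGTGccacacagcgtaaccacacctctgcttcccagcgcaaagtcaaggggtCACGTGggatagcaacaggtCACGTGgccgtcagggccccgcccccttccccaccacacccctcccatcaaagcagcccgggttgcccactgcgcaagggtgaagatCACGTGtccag
Cdk6, chr5:3343643-3343892, + strand: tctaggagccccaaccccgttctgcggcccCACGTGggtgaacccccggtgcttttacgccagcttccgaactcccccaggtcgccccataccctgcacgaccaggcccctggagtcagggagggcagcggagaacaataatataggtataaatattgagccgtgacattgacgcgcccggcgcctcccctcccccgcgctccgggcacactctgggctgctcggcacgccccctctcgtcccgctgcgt
Cdkn1a, chr17:29090729-29090978, + strand: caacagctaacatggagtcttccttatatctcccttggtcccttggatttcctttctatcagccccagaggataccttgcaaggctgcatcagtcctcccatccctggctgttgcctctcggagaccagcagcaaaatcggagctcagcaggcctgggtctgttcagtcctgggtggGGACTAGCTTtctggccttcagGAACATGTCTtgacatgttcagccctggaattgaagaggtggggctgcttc

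The Cdk4 window held CACGTG 4 times and that of Cdk6 once. The windows of Ccne1 and Cdkn2c, which were also lower at 3m, held none, and neither did those of Cdkn1a, Cdkn1b and Ccnd3. Ccnd1, Ccnd2 and Ccne2 had no window to search. CACGTG, which reads the same on both strands, occurred in 6.02% of 32851 windows of this length and 3 or more times in 20 of them. The Cdkn1a window shown held 2 p53 half-sites and its other window (chr17:29093519-29093768) none, a motif found on either strand in 7.13% of windows. The E2F-type letters TTTCGCGC and TTTGGCGC were searched on both strands and were in none of the 10 windows, while 0.256% and 0.417% of all windows held them. The motifs did not overlap each other. A match describes letters only, and binding was not measured.

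Whether the G1 genes changed between P3 and 3m was first asked in astroglia without the GPC clusters, so that the loss of these clusters did not enter the comparison. Some cells with UMIs of cycling markers remained at P3, and a comparison without them is given below. Of the 10 members, 7 were lower at 3m and none was higher, where 13.7% of the 13128 genes tested were called lower and 14.5% higher. Both kinases, Ccnd1, Ccnd2, both E-type cyclins and Cdkn2c were lower, and Ccnd3, Cdkn1a and Cdkn1b were not called. UMIs were summed per library and compared with edgeR's quasi-likelihood test, with Benjamini-Hochberg adjustment over all genes tested. Calls needed an adjusted p no higher than 0.05 together with a change of 1 or more on the log2 scale in either direction, which 28.2% of genes reached. Without scaling beyond library totals, the share of calls in the upward direction was 38.0% and not 51.5%, and the median over all genes moved to -0.26. The median log2 fold change was -2.21 over the members and -0.03 over all genes tested. Of the members, 3 (Cdk6, Ccne1 and Ccne2) reached the minimum level for testing in all P3 libraries but not in all 3m libraries, so their part of the count is no support on its own.

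**Figure D1:**
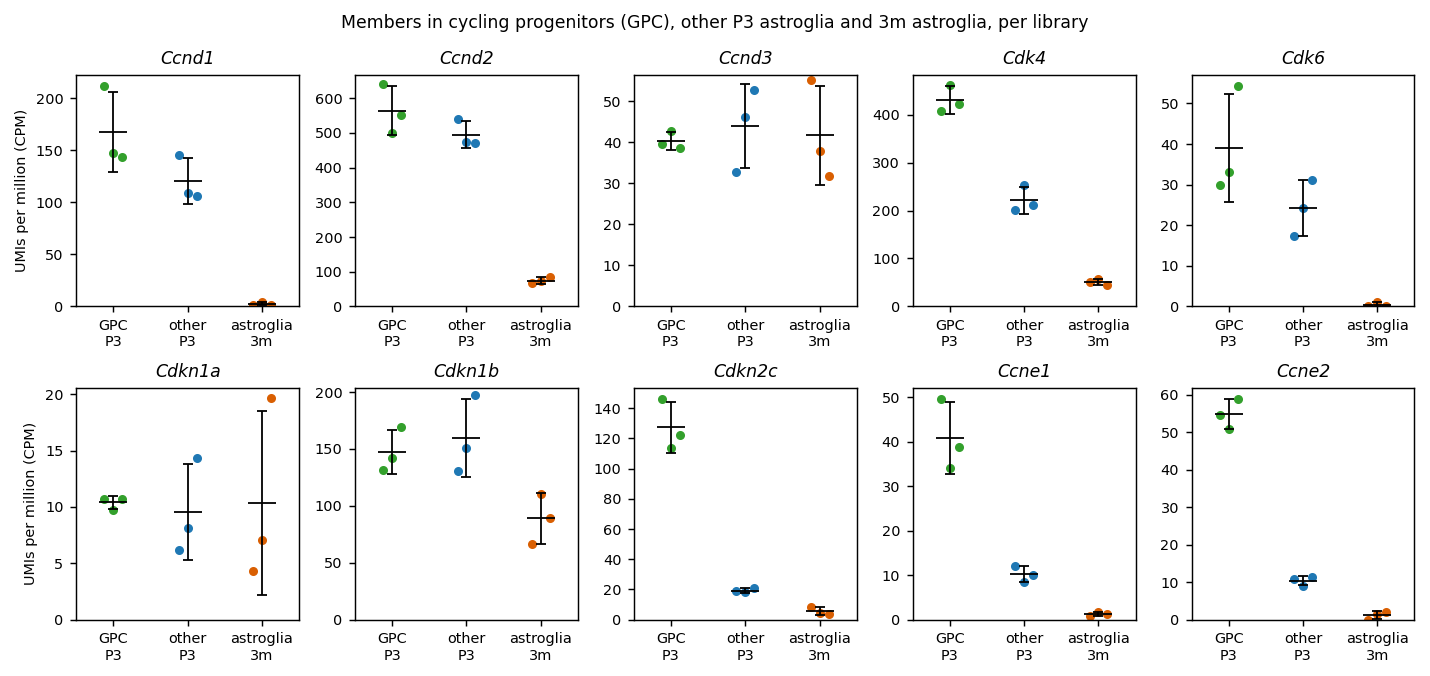
Level (CPM) of each member in GPC clusters at P3 (green), other P3 astroglia (blue) and 3m astroglia (orange); each point is 1 of 3 libraries, and bars give the mean ± SD. For Ccnd1, Ccnd2, Cdk4, Cdk6, Cdkn2c, Ccne1 and Ccne2 all 3m libraries lie below all P3 libraries, for Cdkn1b they also do, and for Ccnd3 and Cdkn1a they overlap.

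Ccnd1, the D-type cyclin most directly induced by mitogens, measured 146, 109 and 106 CPM in the 3 P3 libraries and 1.73, 4.34 and 1.36 CPM in the 3m libraries. The groups were far apart, at 120 ± 22 (SD, n = 3) against 2.47 ± 1.6 CPM (SD, n = 3). Its log2 fold change was -5.27 ± 0.32 (SE, adjusted p = 6.19e-08, edgeR), and only 12 UMIs of Ccnd1 were counted in 1118 astroglial cells at 3m, each in a different cell. Ccnd2, the D-type cyclin typical of neural progenitors, was lower but remained readily detected, at 540, 474 and 472 CPM at P3 and 66.5, 72.1 and 84.2 CPM at 3m. Its log2 fold change was -2.51 ± 0.19 (SE, adjusted p = 4.37e-07, edgeR). Ccnd3, the D-type cyclin of many differentiated cells, measured 32.8, 46.2 and 52.9 CPM at P3 and 55.3, 38.0 and 31.9 CPM at 3m, so that the groups overlapped. The fold change of Ccnd3 was 0.12 on the log2 scale with a 95% interval from -0.37 to 0.62, and its sign turned with scaling by library totals alone (-0.09) and without P3 replicate 1 (-0.04) or 3m replicate 1 (-0.12). The 3 D-type cyclins thus had different values, from a few UMIs left for Ccnd1 through a lower but clear level of Ccnd2 to no call for Ccnd3.

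Cdk4 measured 200, 253 and 211 CPM at P3 against 51.0, 56.4 and 44.1 CPM at 3m, a log2 fold change of -1.92 ± 0.20 (SE, adjusted p = 6.11e-06, edgeR). Cdk6 was at 17.2, 24.2 and 31.1 CPM at P3. At 3m it had 2 UMIs in all, both in 3m replicate 2 (0, 1.08 and 0 CPM). The ratio of pooled levels, P3 over 3m, was 54.6 with a 95% counting interval from 15.1 to 452, which covers counting error only. The fitted log2 fold change was -5.50 (adjusted p = 1.09e-05, edgeR). Both UMIs lay in 7 cells of 3m libraries that fell in sub-clusters made up almost wholly of P3 cells, so that no Cdk6 UMI was found in the 3m astrocyte clusters AST_3m_5 and AST_3m_14. Both kinases fell. Cdk4 kept a measurable level, while Cdk6, which had fewer UMIs than Cdk4 already at P3, did not.

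Cdkn2c, which binds and blocks these kinases, measured 19.1, 18.1 and 20.7 CPM at P3 and 8.64, 4.34 and 4.07 CPM at 3m, and changed by -1.60 ± 0.28 on the log2 scale (SE, adjusted p = 0.00051, edgeR). Cdkn1b, the inhibitor that holds resting cells in G1, measured 131, 151 and 197 CPM at P3 and 66.5, 111 and 89.6 CPM at 3m. The groups of Cdkn1b did not overlap, but its log2 fold change of -0.60 ± 0.22 (SE, adjusted p = 0.0359, edgeR) was smaller than the fold required. No inhibitor among the members was called higher at 3m.

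Ccne1 measured 12.2, 8.48 and 10.1 CPM at P3 and 0.864, 1.63 and 1.36 CPM at 3m, and Ccne2 measured 10.9, 8.95 and 11.3 CPM at P3 and 0, 1.63 and 2.04 CPM at 3m. Each E-type cyclin had 6 UMIs in all at 3m. The log2 fold changes were -2.69 ± 0.42 for Ccne1 (SE, adjusted p = 0.000207, edgeR) and -2.72 ± 0.48 for Ccne2 (SE, adjusted p = 0.000511, edgeR). Cells with UMIs of cycling markers were still present in P3 astroglia outside the GPC clusters, where Cdk1, the mitotic kinase, was at 11.98, 14.9 and 27.2 CPM against 0 in the 3m libraries. Without cells holding a UMI of Mki67, Top2a or Cdk1, the log2 fold change of Ccne2 was -1.06 (adjusted p = 0.177, edgeR) and the call was lost. Ccne1 (-2.15), Cdkn2c (-1.37), Cdk4 (-1.80), Ccnd2 (-2.43), Ccnd1 (-5.28) and Cdk6 (-6.25) were still called without them.

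**Figure D2:**
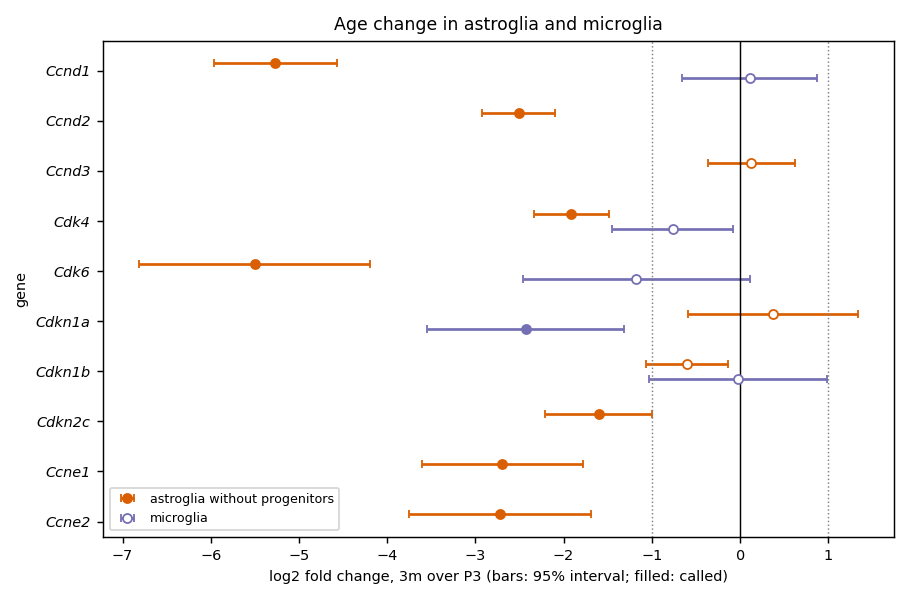
Fitted log2 fold change, 3m over P3, of each member in astroglia without progenitors (orange) and in microglia (purple), with 95% intervals; filled points were called, and dotted lines mark a log2 fold change of 1 in either direction. Ccnd1 is at -5.27 in astroglia and 0.11 in microglia, and Cdkn1a at 0.37 and -2.43; Ccnd2, Ccnd3, Cdkn2c, Ccne1 and Ccne2 were not tested in microglia.

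Cdkn1a was low in most astroglia and its result depended on few cells. It measured 6.19, 8.13 and 14.3 CPM at P3 and 4.32, 7.05 and 19.7 CPM at 3m. The groups overlapped and the log2 fold change was 0.37 ± 0.45 (SE, adjusted p = 0.528, edgeR). Of 47 UMIs of Cdkn1a at 3m, 24 lay in 1 cell of 3m replicate 3, which had 1800 UMIs and fell in the P3 sub-cluster 4. That cell had 1 UMI of Sox9 and none of the other 4 astrocyte markers, nor of any endothelial, microglial, pericyte or multiciliated marker listed. Without the 7 cells of 3m libraries in P3 sub-clusters, the log2 fold change was -1.002 (adjusted p = 0.0685, edgeR). Without 3m replicate 3 it was -0.50, and without the multiciliated cluster 1.05 (adjusted p = 0.0492, edgeR). With the stricter filter on cells it was 2.04 (adjusted p = 0.002, edgeR), and that filter left 12 astroglial cells in 3m replicate 1. No direction is therefore given for Cdkn1a in astroglia as a whole.

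With the GPC clusters included, the same 7 members were lower at 3m and none was higher, where 16.3% of 13530 genes were called lower, 15.8% higher and 32.1% either way. The 2 comparisons share all 3m cells. Members enriched in GPC had larger changes with them, with log2 fold changes of -2.84 for Cdkn2c, -3.48 for Ccne1 and -3.74 for Ccne2.

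Several measures moved with age alongside these genes, and their part in the results was not tested. The summed level of 9 immediate early genes, such as Fos and Egr1, was 3397 to 4334 CPM in P3 astroglia without progenitors and 131 to 199 CPM at 3m, and all 9 were called lower. The median share of mitochondrial UMIs in astroglia was 1.27% to 2.47% at P3 and 5.97% to 8.18% at 3m. The summed level of 7 oligodendrocyte markers was 5.59 to 6.54 CPM in P3 astroglia and 710 to 1872 CPM in 3m astroglia. Oligodendrocytes at 3m held Ccnd1 at 1.4 CPM and Cdk6 at 0.2 CPM. Without cells that held oligodendrocyte UMIs, the same 7 members were called lower, with Ccnd1 at -5.35, Cdk6 at -5.19 and Cdk4 at -1.80. After thinning all libraries to the smallest astroglial total, Ccnd1 was at -5.18, Ccnd2 at -2.48, Cdk4 at -1.79, Cdk6 at -4.82, Cdkn2c at -1.29 and Ccne1 at -2.97, all called lower, and Ccne2 and Cdkn1a were too low to be tested.

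The wider G1 pathway was read from a list of 47 genes outside the members, of which 45 were tested in astroglia without progenitors. Of these, 17 were lower, 3 were higher and 25 were not called, with a median log2 fold change of -0.63. Over all 13128 genes tested, 13.7% were called lower and 14.5% higher. Among 7 partners and activators 4 fell, led by Ccna2, the S-phase cyclin, with no UMI at 3m and a level at least 7.38-fold lower (floor of 3 UMIs over the 3m libraries). Cks1b, a small subunit of Cdk complexes, fell by 2.91 on the log2 scale, and Cdc25a, the phosphatase that activates Cdk2, by 1.96. Cdk2 itself was also called lower. Among 12 pocket proteins and E2F factors tested, 5 fell and 1 rose. The repressor E2f8 was at least 3.2-fold and E2f7 at least 3.15-fold lower, the pocket protein Rbl1 (p107) fell by 1.81 and the E2F partner Tfdp1 by 1.70 on the log2 scale, and E2f1 was the fifth called. Ccna2, E2f7 and E2f8 had no UMI at 3m and were tested through P3 alone, so their calls are no support on their own. Rb1, which encodes the retinoblastoma protein itself, rose by 1.59 ± 0.18 (SE, adjusted p = 1.75e-05, edgeR), from 53.1 to 136 CPM in the pooled libraries.

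Of the 8 genes of protein turnover 3 fell. Dtl, which targets p21 and other proteins for degradation in S phase, had 1 UMI at 3m, a ratio of 51.7 with a counting interval from 9.25 to 2046, and Skp2, which targets p27, fell by 1.64 on the log2 scale. Fbxw7, which targets cyclin E, was the third called. Cdkn1c (p57) was the inhibitor called among 3 tested outside the members, on 3 UMIs at 3m, with a ratio of 4.15 and an interval from 1.40 to 20.3. Dtl and Cdkn1c did not reach the minimum level for testing in all 3m libraries, so their calls are no support on their own. In the p53 arm Sesn1 rose by 1.25 and Gadd45a fell, and among the upstream genes Tcf7l2 rose by 1.11 while Ctnnb1, Akt1 and Myc fell. Rb1, Sesn1, Tcf7l2, Cdk2, E2f1, Fbxw7, Gadd45a, Ctnnb1, Akt1 and Myc fall outside the rule for named genes and were named after their values were seen, to complete the counts. Among those not called, Ccnh, a subunit of the Cdk-activating kinase, was at 0.00 on the log2 scale, the inhibitor Cdkn2d (p19) at -0.03, Mdm2 at 0.41 and Trp53 at -0.67.

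The members were then read across the clusters of all cell types. The clusters were drawn from the same cells and genes, so these levels are a description without a test. At P3, GPC cells held more Cdkn2c than the other astroglia (multiciliated cluster left out), at 146, 114 and 122 against 19.1, 18.1 and 20.6 CPM. The ratio within a library lay between 5.93 and 7.67. The within-library ratio was 4.99 to 5.58 for Ccne2, 4.04 to 4.16 for Ccne1, 1.81 to 2.03 for Cdk4, 1.42 to 1.78 for Cdk6 and 1.33 to 1.45 for Ccnd1. For Ccnd2 it was 1.05 to 1.18, for Ccnd3 0.74 to 1.21 and for Cdkn1b 0.85 to 1.00. For Ccnd2, Ccnd3 and Cdkn1b the levels in P3 astroglia outside the GPC clusters were thus close to those within them.

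The GPC clusters differed from each other in the E-type cyclins, which were high in GPC_8 only. Ccne2 measured 98.9, 75.9 and 109 CPM in GPC_8 and 4.11, 3.16 and 3.95 CPM in GPC_9, and Ccne1 measured 87.0, 47.3 and 63.6 CPM in GPC_8 and 6.99, 8.70 and 11.5 CPM in GPC_9. Ccne2 in GPC_8 overlapped the endothelial cluster END_13 (72.7, 99.0 and 63.2 CPM). Cdkn1a was at 16.9, 12.4 and 17.5 CPM in GPC_8 and at 3.70, 4.75 and 3.16 CPM in GPC_9. Cdk4 was also higher in GPC_8 (457, 512 and 487 CPM) than in GPC_9 (353, 369 and 348 CPM). Cdkn1b ran the other way, at 107, 124 and 153 CPM in GPC_8 and 159, 176 and 186 CPM in GPC_9. Cdkn2c overlapped between them, at 134, 108 and 114 CPM in GPC_8 and 160, 125 and 130 CPM in GPC_9.

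**Figure D3:**
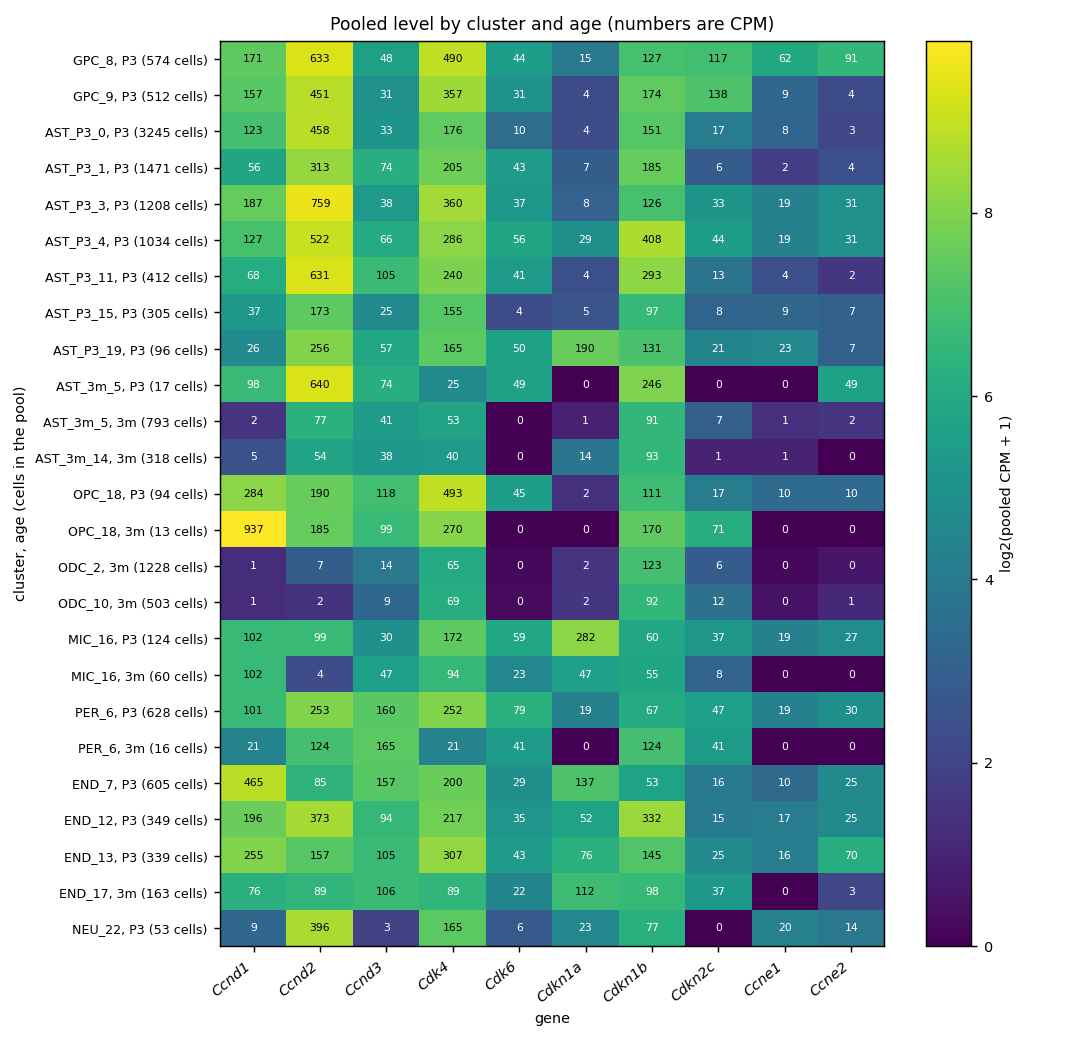
Pooled level of each member (columns) in each named cluster and age (rows, at least 10 cells; number of cells in brackets); the colour is log2(CPM + 1) and the printed number the CPM. The E-type cyclins are high in GPC_8 and Ccne2 also in END_13, Cdkn2c in both GPC clusters, Cdkn1a in P3 microglia (282 CPM) and the multiciliated cluster AST_P3_19 (190 CPM), and Cdk6 is at 0 in both 3m astrocyte clusters. Not drawn are 3 clusters that the study named for low marker expression and left unidentified.

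Among P3 astrocytes outside the GPC clusters, AST_P3_3 had the highest mean Ccnd2 of any cluster, at 854, 686 and 795 CPM, and its range overlapped that of the next cluster, AST_P3_11. Of the AST_P3_3 cells, 43 and 26 fell in the sub-clusters 6 and 8 that hold the progenitors. Cdk4 in AST_P3_3 (345, 371 and 354 CPM) overlapped GPC_9 but lay below GPC_8. Cdkn1b was highest in AST_P3_11, with a mean of 270 ± 54 CPM (SD, n = 3), and in AST_P3_4, with 135, 228 and 435 CPM. AST_P3_4 rested largely on P3 replicate 3, which gave 983 of its P3 cells, against 17 and 34 in the others. Outside the astroglia, Ccnd1 was highest in the endothelial cluster END_7 (584, 401 and 389 CPM), followed by the oligodendrocyte precursors OPC_18 at P3 (286, 249 and 331 CPM), and these groups did not overlap. In 13 precursor cells at 3m Ccnd1 was at 937 CPM (66 UMIs, 95% Poisson interval 725 to 1192), although too few cells per library were present for a comparison. Cdk4 in P3 precursors (518, 525 and 438 CPM) overlapped GPC_8. Pericytes (150, 177 and 160 CPM) and END_7 (169, 168 and 140 CPM) held the highest Ccnd3, and pericytes the highest Cdk6 (75.2, 76.4 and 85.2 CPM), overlapping P3 microglia. Over the 23 combinations of cluster and age with at least 2 libraries, most neighbours in the order of means overlapped, from 20 adjacent pairs for Ccnd1, Ccnd2, Ccne1 and Cdk4 to 22 for Cdk6 and Ccne2.

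The genes with the profile most like each member were found by Pearson's r of log2(CPM + 1) over 24 cluster-by-age profiles of at least 50 cells, among 7909 genes. The profiles share libraries and differ in depth, so r is given as a description. Cdk4 was most like Ran (r = 0.967) and Nasp (0.958), Ccne2 like Tcf19 (0.947) and Hist1h1a (0.922), Ccne1 like Cenph (0.928) and Cks1b (0.912), and Cdkn2c like Pmf1 (0.871) and Smc4 (0.861). Ccnd1 was most like Ier2 (0.876), Tyms (0.866) and Fos (0.859), Cdk6 like Sec61b (0.913), and Ccnd2 like Mn1 (0.921). Cdkn1b was most like Fubp3 (0.922), Ccnd3 like Pgm2 (0.941) and Cdkn1a like Ctsh (0.892).

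Along the pseudotime, a score by which cells were ordered from a cycling sub-cluster towards the 3m astrocytes, the members peaked at different places. Bins 2 to 9 held P3 cells only, nearly all of them GPC, bins 11 to 14 held mostly P3 astrocytes outside the GPC clusters, and bins 16 to 19 held 3m cells only. The score was itself computed from expression, so the levels are a description. Ccne2 fell from 180 CPM (95% Poisson interval 159 to 202) in bin 2 to 1.46 CPM (0.474 to 3.41) in bin 7, was at 57.2 CPM in bin 10 and 56.9 CPM in bin 11, and ended the P3 range at 5.06 CPM in bin 14. Ccne1 had a similar course, from 86.1 CPM in bin 2 to 11.4 CPM in bin 7, 33.9 CPM in bin 11 and 8.54 CPM in bin 14. The genes differed in bin 6, where the P3 libraries held 75.4, 17.2 and 28.7 CPM of Ccne1 and 16.9, 1.91 and 0 CPM of Ccne2. In single libraries, Ccne2 was at 66.9, 42.4 and 68.5 CPM in bin 11 and at 4.21, 5.52 and 5.14 CPM in bin 14. In bin 2 it was at 133 CPM in P3 replicate 2 and 292 CPM in P3 replicate 3. Both lay outside the interval given for bin 2, which covers counting error only, and P3 replicate 1 had too few cells there.

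The inhibitors Cdkn2c and Cdkn1b were highest near bin 7, where the E-type cyclins were low. Cdkn2c was at 67.3 CPM in bin 2, 187 CPM (173 to 202) in bin 7 and 12.01 CPM in bin 14. Cdkn1b was at 106 CPM in bin 2, 189 CPM (175 to 204) in bin 7, 101 CPM in bin 11 and 152 CPM in bin 14. The D-type cyclins showed no such gap. Ccnd2 moved from 719 CPM in bin 2 through 416 CPM in bin 9 to 805 CPM (781 to 829) in bin 11 and 337 CPM in bin 14, and it was at 87.8 CPM in bin 17 at 3m. Ccnd1 was at 251 CPM in bin 2, 198 CPM in bin 11 and 106 CPM in bin 14, and at 1.36 CPM (0.165 to 4.92, 2 UMIs) in bin 17. In single libraries, Ccnd1 was at 243 CPM (P3 replicate 2) and 114 CPM (P3 replicate 3) in bin 2. In bin 11 the P3 libraries were at 212, 189 and 198 CPM, so bins 2 and 11 overlapped. Cdk4 was at 564, 354, 461 and 158 CPM in bins 2, 7, 11 and 14, and at 56.5 CPM in bin 17. No age between P3 and 3m was sampled.

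**Figure D4:**
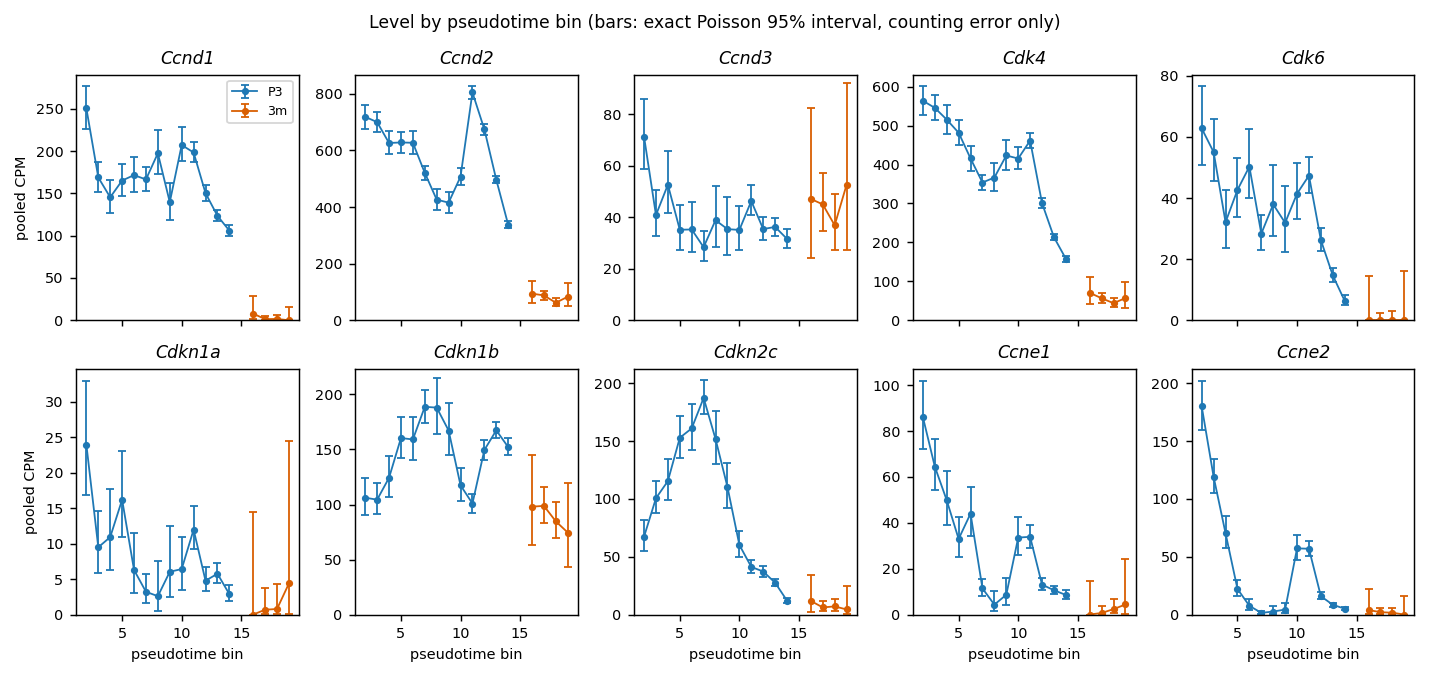
Pooled level (CPM) of each member by pseudotime bin in P3 cells (blue) and 3m cells (orange), for bins of at least 30 cells; bars are exact 95% Poisson intervals and cover counting error only. Ccne1 and Ccne2 are high in bin 2, low in bins 7 to 9 and higher again in bins 10 and 11, Cdkn2c peaks in bin 7 at 187 CPM, and Ccnd2 peaks in bin 11 at 805 CPM.

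The study assigned sub-clusters of non-progenitor astroglia to telencephalic or non-telencephalic identity, the latter possibly from neighbouring regions. Non-telencephalic cells made up 8.21%, 32.9% and 56.1% of these cells in the P3 libraries and 7.98%, 47.8% and 13.9% in the 3m libraries (multiciliated cluster left out), so libraries differed in their mix. Cdk6 measured 16.7, 16.1 and 21.2 CPM in telencephalic and 25.5, 45.2 and 48.0 CPM in non-telencephalic P3 cells, and Ccnd3 measured 30.7, 35.3 and 37.5 CPM against 65.1, 79.1 and 79.5 CPM. Both genes were higher in the non-telencephalic cells of every P3 library. Ccnd1 was the reverse, at 153, 127 and 129 CPM in telencephalic and 57.5, 62.3 and 71.3 CPM in non-telencephalic cells. Since sub-clusters were drawn from these genes, this difference has no test.

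Within telencephalic cells alone, 8 members were lower at 3m and none was higher, where 14.8% of 12386 genes were called lower and 15.3% higher. These were the 7 members named above and Cdkn1a. Of them, Cdk6, Cdkn1a, Ccne1 and Ccne2 did not reach the minimum level for testing in all 3m libraries, so these 4 calls are no support on their own. No Cdk6 UMI was found in these cells at 3m, a level at least 19.5-fold lower. Cdkn1a measured 5.15, 4.39 and 6.27 CPM at P3 and 0.912, 0 and 1.61 CPM at 3m (3 UMIs), with an adjusted p of 0.00538 (edgeR). In non-telencephalic cells, 4 of 7 members tested (Ccnd1, Ccnd2, Cdk4, Cdk6) were lower, where 13.6% of 8548 genes were called lower and 15% higher. There Cdkn1a was called higher, at 2.83, 7.42 and 9.94 CPM at P3 and 65.1, 14.9 and 117 CPM at 3m. In these cells Cdkn1a reached the minimum level for testing at 3m only, and Ccnd1 and Cdk6 at P3 only. Each was thus tested through the age where it is high, and these calls are no support on their own. Without the 7 cells in P3 sub-clusters the 3m values of Cdkn1a were 65.1, 9.34 and 13.1 CPM, where the first rests on 17 cells of 3m replicate 1, and the groups overlapped.

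The difference of the age change between these sets of cells was tested in 1 model over both. An interaction passed at an adjusted p of at most 0.05, as 22.4% of 9958 genes did (10.5% positive, 11.9% negative), for 3 of the 10 members. The age change was lower in non-telencephalic than in telencephalic cells by 1.17 on the log2 scale for Ccnd3 (adjusted p = 0.00681, edgeR) and by 0.70 for Cdkn1b (adjusted p = 0.0224, edgeR). Ccnd3 was lost without 3m replicate 3 (adjusted p = 0.0583), and Cdkn1b without P3 replicate 3 (adjusted p = 0.0779) or 3m replicate 2 (adjusted p = 0.274). For Cdkn1a the interaction was 5.65 ± 0.70 (SE, adjusted p = 1.17e-06, edgeR), and 4.18 without the 7 cells. In the separate comparisons Cdkn1a missed the minimum level in some 3m libraries of telencephalic cells, and reached it at 3m only in non-telencephalic cells. Each set was thus tested through the age where Cdkn1a is high, and this interaction is no support on its own. The sets were drawn by clustering the same cells, so the test is not independent of these genes.

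**Figure D5:**
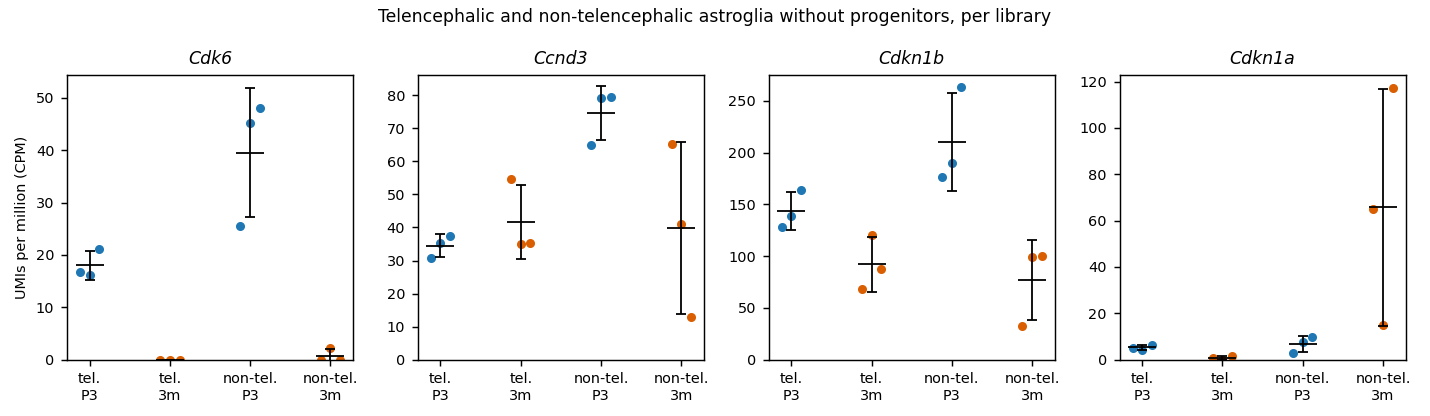
Level (CPM) of Cdk6, Ccnd3, Cdkn1b and Cdkn1a in telencephalic (tel.) and non-telencephalic (non-tel.) astroglia without progenitors at P3 (blue) and 3m (orange); points are libraries and bars the mean ± SD (n = 3). Cdk6 and Ccnd3 are higher in non-telencephalic than telencephalic cells in each P3 library, and the 3m non-telencephalic values of Cdkn1a spread from 14.9 to 117 CPM.

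Microglia, which were present at both ages, gave a cell type for comparison, although on few cells (34, 44 and 46 at P3 and 20, 23 and 17 at 3m). Cdkn1a was the member called, lower at 3m, where 3.43% of 2679 genes were called lower, 6.68% higher and 10.1% either way. It measured 431, 258 and 166 CPM at P3 and 39.5, 19.9 and 112 CPM at 3m, without overlap, with a log2 fold change of -2.43 ± 0.52 (SE, adjusted p = 0.00683, edgeR). The call of Cdkn1a was lost without 3m replicate 1 (adjusted p = 0.0653) or 3m replicate 2 (adjusted p = 0.0602), and it rests on 12 UMIs at 3m. At 3m only 1 of the 3 libraries reached the minimum level for testing, so that the gene was tested through the age where it is high and the call is no support on its own. Ccnd1 measured 121, 66.8 and 124 CPM at P3 and 119, 79.4 and 112 CPM at 3m, a log2 fold change of 0.11 with a 95% interval from -0.66 to 0.87. Cdk4 (-0.76), Cdk6 (-1.18) and Cdkn1b (-0.02) were not called, and the other 5 members were too low to be tested. Of these, Ccnd2 was at 164, 36.4 and 107 CPM at P3 and at 0, 9.93 and 0 CPM at 3m, a single UMI. The summed level of the immediate early genes in microglia was 9653 to 10353 CPM at P3 and 8700 to 12212 CPM at 3m, and that of the 3 cycling markers 228 to 406 CPM at P3 and 0 at 3m.

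Whether the age change differed between microglia and astroglia without progenitors was tested by an interaction, which 6.19% of 9231 genes passed at an adjusted p of at most 0.05, 1.57% with a positive and 4.61% with a negative value. It passed for 3 of 8 members tested. Relative to astroglia, the change in microglia was higher by 4.98 ± 0.60 on the log2 scale for Ccnd1 (SE, adjusted p = 5.68e-10, edgeR) and by 4.0 ± 1.2 for Cdk6 (SE, adjusted p = 0.0324, edgeR), and it was -3.04 ± 0.60 for Cdkn1a (SE, adjusted p = 0.000147, edgeR). Cdk6 was lost without 3m replicate 1 (adjusted p = 0.15) or 3m replicate 3 (adjusted p = 0.396), and Cdkn1a without 3m replicate 3 (adjusted p = 0.115). Without the 7 cells of 3m libraries in P3 sub-clusters, which held 29 of the 47 astroglial Cdkn1a UMIs at 3m, the interaction of Cdkn1a was -1.82 (adjusted p = 0.142, edgeR) and was lost, while Ccnd1 (5.09, adjusted p = 2.45e-10) and Cdk6 (adjusted p = 0.00259) still passed. Astroglia at 3m then held 0 UMIs of Cdk6. In the separate comparisons Cdk6 reached the minimum level for testing in 1 3m library of each cell type, and Cdkn1a in 1 of microglia. The interactions of Cdk6 and Cdkn1a are therefore no support on their own. For Cdk4 the difference was 0.77, with a 95% interval from -0.07 to 1.61, and for Ccnd2 -2.32, with an interval from -4.80 to 0.17.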

How the data were processed

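Single-cell libraries of ACSA2-enriched striatal cells were grouped by the age and replicate number in their labels (P3 and 3m, 3 each). Each library was sequenced on 11 lanes, and no label gives another batch. The deposited table held raw UMI counts, made by the authors with Cell Ranger on mm10 and merged without normalization. A deposited table of cells gave cluster names, astroglial sub-cluster numbers, and a pseudotime score with its bin, computed by the authors with Seurat (3.1.1 per the submitters' processing notes) and Slingshot. Barcodes were kept by the authors' criteria (more than 500 genes, less than 10% of UMIs mitochondrial), and doublets were not removed here.

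Counts were summed per library (pseudobulk), since cells are not replicates, and tested with edgeR 4.0.16 (R 4.3.3): TMM scaling, filterByExpr, quasi-likelihood F-test, two-sided, Benjamini-Hochberg adjustment over all genes tested. Intervals of the fold changes are at 95%. Libraries were separate preparations. With 3 libraries against 3, an exact permutation test could not pass 0.05, so none was used. Cluster and bin levels were pooled or averaged over libraries with at least 10 cells. Where 0 UMIs were counted in an age, the fold is a bound, taking 3 UMIs over its libraries as the floor, and with 1 to 3 UMIs the ratio has an exact counting interval. Astroglial sums held 22327104 to 30617140 UMIs at P3 and 1157485 to 1843998 at 3m, so low genes were measured less precisely at 3m. Levels are of 3′ ends, and differences in level between genes were not tested. Wilson intervals were computed for shares of cells.

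The members and gene lists were chosen with earlier results of these data known. All 10 members were named, and in the list of 47 pathway genes up to 10 called genes with the largest change and up to 5 not called, of which 1 is not reported here. Other called genes of that list were named after their values were seen. Alternatives were RLE scaling, no scaling, no filter on genes, DESeq2 1.42.0, thinning, a replicate block, stricter cell filters (over 1000 genes and under 5% mitochondrial UMIs, or without the top 2% of UMIs), subsets of cells, and leaving out each library. The fits by non-telencephalic cells, without the 7 cells of 3m libraries in P3 sub-clusters (also for the interaction with cell type), and of age by region were chosen after seeing the data. The test was checked on simulated counts.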

Additional observations from a re-analysis of the deposited data

Results flagged for a closer look

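For 3 of 8 members tested the age change differed between microglia and astroglia without progenitors by the interaction test (edgeR), which 6.19% of 9231 genes passed. The interaction, microglia minus astroglia on the log2 scale, was 4.98 for Ccnd1, 4.0 for Cdk6 and -3.04 for Cdkn1a. Cdk6 was lost without 3m replicate 1 (adjusted p = 0.15) or 3m replicate 3 (adjusted p = 0.396), and Cdkn1a without 3m replicate 3 (adjusted p = 0.115). Both astroglial UMIs of Cdk6 at 3m and 29 of 47 of Cdkn1a were in 7 cells that lay in P3 sub-clusters. Without these cells Cdkn1a was at -1.82 (adjusted p = 0.142, edgeR) and was lost. Cdk6 reached the minimum level for testing in 1 3m library of each cell type, and Cdkn1a in 1 of microglia. The interactions of Cdk6 and Cdkn1a are therefore no support on their own. Ccnd1 was at 102 CPM in the pooled microglia of each age and went from 119 to 2.68 CPM in astroglia. The immediate early genes had the same contrast, with all 9 passing the interaction, and whether this bears on Ccnd1 was not tested.

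For 3 of the 10 members the age change differed between telencephalic and non-telencephalic astroglia, a comparison chosen after seeing the data. Of all 9958 genes tested, 22.4% passed this interaction. The sets were drawn by clustering the same cells, so the test is not independent of these genes. The interaction, non-telencephalic minus telencephalic, was -1.17 for Ccnd3, 5.65 for Cdkn1a and -0.70 for Cdkn1b. Without the 7 cells that of Cdkn1a was 4.18. Each set of cells was tested for Cdkn1a through the age where it is high, so its interaction is no support on its own. Ccnd3 was lost without 3m replicate 3 (adjusted p = 0.0583), and Cdkn1b without P3 replicate 3 (adjusted p = 0.0779) or 3m replicate 2 (adjusted p = 0.274).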

How the results depend on the processing

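In astroglia without progenitors, the same 7 members were called lower under every alternative that tested all of them except the one without cells holding cycling UMIs, where Ccne2 was lost. Of the values of single members there, 194 kept their direction and side of the threshold, as did 172 with progenitors included, 50 in microglia, 77 of the interaction with cell type and 81 of that with region. The exceptions not already given with the results are listed here on the log2 scale, and the cause was not tested.

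Ccnd3 in all astroglia was at -0.068 with no scaling beyond library totals, -0.0031 with no filter on genes, and between -0.15 and 0.24 with 1 library left out. Without progenitors it was at -0.094 with no scaling, -0.73 in non-telencephalic cells, and between -0.12 and 0.26 with 1 library left out. Cdkn1a in all astroglia was at -1.07 without the 7 cells of 3m libraries in P3 sub-clusters, -2.70 in telencephalic cells, and between -0.58 and 0.60 with 1 library left out, and it was called higher at 1.98 with the stricter filter on cells. Without progenitors these were -1.002, -2.32, -0.50 to 0.75, and 2.04, and it was also called higher at 1.05 without the multiciliated cluster and at 2.87 in non-telencephalic cells. In the non-telencephalic cells Cdkn1a was tested through the 3m libraries alone. Ccne2 was at -1.06 without cells holding cycling UMIs.

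In microglia the number of members called was 3 with no filter on genes, 0 after thinning, which left no member to be tested, and between 0 and 2 with 1 library left out. Ccnd1 there was at -0.029 with no scaling, -0.16 with no filter, and between -0.16 and 0.22 with 1 library left out, and Cdkn1b between -0.86 and 0.20. For the interaction with cell type, 0 members passed after thinning, which left 2 members to be tested, and between 1 and 3 with 1 library left out, where Cdkn1b lay between -0.26 and 0.57. Cdkn1a was at -1.82 for it without the 7 cells, and lost. For the interaction with region, Cdk6 was at -1.13 without the 7 cells. With 1 library left out, Cdk6 lay between -1.12 and 4.80, Ccnd1 between -5.44 and 2.48, Ccnd2 between -0.27 and 0.76, and Ccne1 between -5.02 and 0.73. Without scaling, calls that were higher went from 66.1% to 52.0% in microglia, and positive values from 25.4% to 60.6% for the interaction with cell type.

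Without the 2% of cells with most UMIs, END_7 was at 105 CPM for Ccnd2, 178 for Ccnd3, 178 for Cdk4, 31.6 for Cdk6 and 14.6 for Ccne2, and GPC_8 at 49.2 for Ccnd3. As a mean of 2 libraries, bin 2 held 179 CPM of Ccnd1 and 212 CPM of Ccne2. By means of libraries the highest P3 bin for Ccnd1 was bin 8, at 224 CPM.

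Replicate numbers were shared between ages, and the libraries were compared as unpaired. Same-numbered libraries of astroglia without progenitors deviated together with r = 0.225, 0.111 and 0.0478, and differently numbered ones with r from -0.19 to 0.15. With 3 libraries per age these values cannot settle whether the libraries were paired. A replicate block changed the call of no member, and moved the number of genes called from 4344 to 4420 in all astroglia, from 3702 to 3791 without progenitors and from 271 to 277 in microglia. Depth limits the low genes at 3m, where a floor of 3 UMIs over all astroglia corresponds to 0.671 CPM.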
